A study of Mus musculus with 18 samples.

Results

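Interferon-stimulated genes are the genes whose transcription rises when a cell senses interferon, and 41 of them, listed by symbol, were followed in mouse liver. The platform annotation held 35 of the 41 among 17097 genes measured. Oas1a, Isg15, Bst2, Ifi44, Gbp6 and Tap1 were not analysed here. Each gene was read from a probe set annotated with its symbol alone. For the 11 members with more than 1 such probe set, the one with the highest mean over all arrays was taken.

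Livers of female mice aged 6 to 8 weeks were profiled on 18 single-colour Affymetrix arrays, in a study that looked for regulators of the movement of cholesterol from macrophages to excretion. The chronic model set 5 livers labelled NPC1L1-Liver-Transgenic against 5 wild-type livers, all C57BL/6. The acute model set 4 livers of mice that received an ASO, or antisense oligonucleotide, directed at ACAT2 against 4 of mice that received a non-targeting control ASO, all C57BL/6N, so that both of its groups carry an oligonucleotide. Both models were used to stimulate the loss of cholesterol through the intestinal wall, outside bile. The labels used here give neither the promoter and species of the transgene nor the dose and duration of the ASO. They number the samples of a group without naming separate animals, and a p-value here speaks of the scatter among samples, part of which may be technical.

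Interferons are cytokines released when a cell meets viral or misplaced nucleic acid. Type I interferons act through a complex that holds STAT2 and IRF9 and binds the interferon-stimulated response element (ISRE). Interferon gamma, made mainly by natural killer and T cells, acts at the gamma-activated site (GAS) and raises guanylate-binding proteins, immunity-related GTPases, CXC chemokines and the antigen presentation genes. In liver both hepatocytes and Kupffer cells, the resident macrophages, answer interferon.

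Upstream windows of 7 members are printed to show where such elements lie. They are the members with the largest spread between arrays that had a window at the gene start, which leaves out Gbp3 and Ifit2 (ranks 4 and 6 by spread). They come from the RefSeq promoter table for GRCm38.p6, which held upstream windows of 250 bases for 26 of the 35 measured members. Not all of these lie at the gene start, and for Gbp3, Ifit2, Ifit3, Oas3 and Isg20, among others, none does. A gene with several windows was counted as holding a pattern if any of them did. Capitals mark each match to the ISRE core (GAAA, any 2 bases, GAAA) or to the GAS pattern (TTC, any 3 bases, GAA), searched on both strands. All sequences run 5′ to 3′ on the strand of the gene, so a match on the other strand reads as its reverse complement.
Cxcl10, chr5:92348890-92349139, minus strand: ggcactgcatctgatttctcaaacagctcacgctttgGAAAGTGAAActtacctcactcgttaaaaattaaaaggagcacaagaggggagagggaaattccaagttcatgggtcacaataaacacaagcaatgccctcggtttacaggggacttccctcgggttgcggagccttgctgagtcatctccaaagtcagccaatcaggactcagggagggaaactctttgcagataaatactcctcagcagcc
Cxcl9, chr5:92328080-92328329, minus strand: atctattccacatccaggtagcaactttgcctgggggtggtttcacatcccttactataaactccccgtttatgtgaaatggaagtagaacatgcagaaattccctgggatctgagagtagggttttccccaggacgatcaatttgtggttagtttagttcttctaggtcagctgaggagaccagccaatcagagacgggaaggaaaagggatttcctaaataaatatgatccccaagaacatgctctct
Gbp2, chr3:142620413-142620662, plus strand: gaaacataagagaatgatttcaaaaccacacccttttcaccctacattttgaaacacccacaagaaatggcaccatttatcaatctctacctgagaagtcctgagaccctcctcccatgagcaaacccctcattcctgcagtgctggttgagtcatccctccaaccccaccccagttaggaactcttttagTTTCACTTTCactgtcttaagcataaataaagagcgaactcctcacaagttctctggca
Igtp, chr11:58199306-58199555, plus strand: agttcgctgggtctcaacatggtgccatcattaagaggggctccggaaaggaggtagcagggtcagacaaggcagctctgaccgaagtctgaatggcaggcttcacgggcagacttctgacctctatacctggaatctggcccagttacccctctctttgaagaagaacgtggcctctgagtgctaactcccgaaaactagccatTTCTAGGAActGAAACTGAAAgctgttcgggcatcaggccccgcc
Irgm1, chr11:48871421-48871670, minus strand: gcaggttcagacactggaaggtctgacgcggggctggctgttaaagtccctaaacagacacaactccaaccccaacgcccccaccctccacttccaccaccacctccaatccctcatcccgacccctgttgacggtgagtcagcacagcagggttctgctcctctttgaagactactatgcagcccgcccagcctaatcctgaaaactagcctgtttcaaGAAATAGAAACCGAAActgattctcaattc
Ifit1, chr19:34640639-34640888, plus strand: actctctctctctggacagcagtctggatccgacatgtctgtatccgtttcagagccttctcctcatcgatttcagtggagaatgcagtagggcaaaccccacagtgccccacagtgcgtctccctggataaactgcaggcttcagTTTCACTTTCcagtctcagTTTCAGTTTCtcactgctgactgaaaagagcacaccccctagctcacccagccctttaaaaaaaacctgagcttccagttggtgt
Irf1, chr11:53769764-53770013, plus strand: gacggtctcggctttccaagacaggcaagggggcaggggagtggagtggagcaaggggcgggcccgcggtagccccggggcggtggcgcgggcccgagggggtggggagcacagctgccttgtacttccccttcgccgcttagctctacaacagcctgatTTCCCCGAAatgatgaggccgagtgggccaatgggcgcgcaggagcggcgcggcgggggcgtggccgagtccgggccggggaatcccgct

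The Igtp window holds both patterns, a GAS beginning 45 bases and an ISRE core 34 bases upstream of the gene start, next to each other. Irgm1 has 2 overlapping ISRE cores, beginning 30 and 24 bases upstream, and Ifit1 has 2 separate ones, at 104 and 85 bases. The single ISRE core of Gbp2 begins 59 bases upstream and that of Cxcl10 213 bases upstream, and Irf1 has a GAS at 90 bases and no ISRE core. The window of Cxcl9, second by spread, holds neither pattern. Of the 26 measured members with a window, 10 (38.5%) held an ISRE core, against 936 of 27025 genes (3.46%) in the whole table. A GAS pattern was present in 5 of the 26 (19.2%), against 8.13% of the 27025 genes. A match is a description of the letters and does not show that a factor binds there.

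Of the 18 arrays, 2 stood apart in these genes, and both came from the comparison groups: wild type 2 and control ASO 4. Wild type 2 was the highest of the 5 wild-type arrays for 34 of 35 members, the exception being Oas3, whereas it was the highest for 21.8% of all genes. Control ASO 4 was the highest of the 4 control ASO arrays for 33 of 35 members, with Oas2 and Trim25 as exceptions, against 27.1% of all genes. Because of these arrays each comparison is given with and without them. Leaving them out together was chosen with earlier results of these data known.

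The mean log2 value over the 35 members was 7.56, 7.19, 7.55, 7.45 and 7.34 in transgenic livers 1 to 5, against 7.06, 8.38, 7.46, 7.14 and 6.94 in wild-type livers 1 to 5. It was 6.82, 6.50, 6.15 and 6.30 after ACAT2 ASO (arrays 1 to 4), against 6.24, 6.35, 6.28 and 7.60 after control ASO. Wild type 2 lay above all 5 transgenic livers and control ASO 4 above all 4 ACAT2 ASO livers, while the other arrays of the 2 groups lay among or below the livers they were compared with. Group means ± SD were 7.42 ± 0.16 for transgenic against 7.40 ± 0.58 for wild-type liver (n = 5 each), and 6.44 ± 0.29 for ACAT2 ASO against 6.62 ± 0.66 for control ASO liver (n = 4 each). Levels are compared only within a model, since the array medians ran from 4.61 to 4.65 in the transgenic model and from 4.38 to 4.40 in the ASO model.

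**Figure D1:**
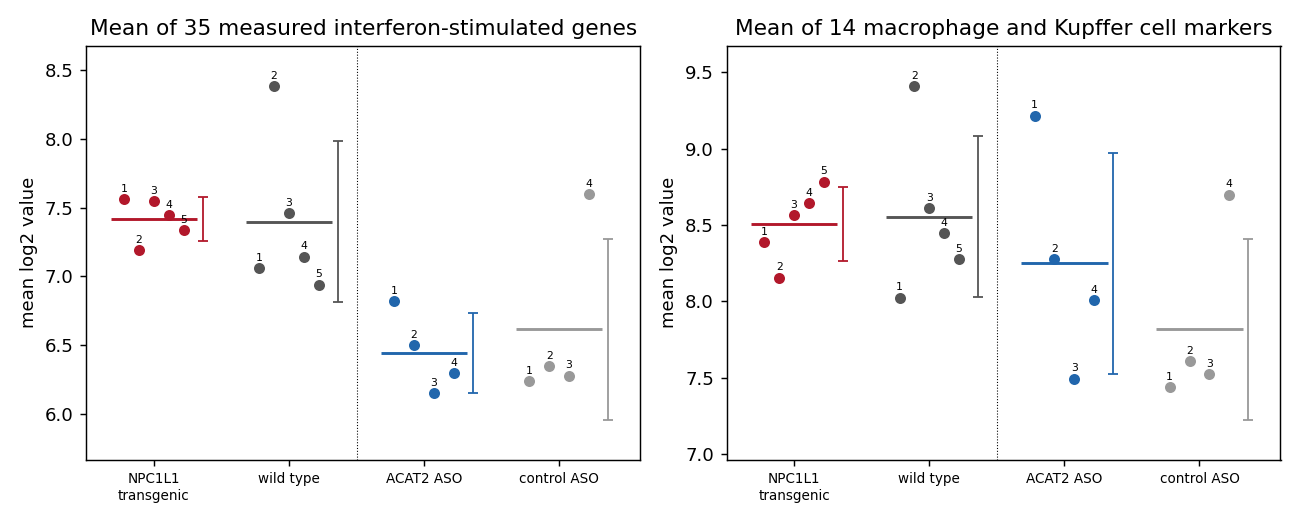
Mean log2 value per array of the 35 measured interferon-stimulated genes (left) and of 14 macrophage and Kupffer cell markers (right). Points are arrays with their replicate numbers, horizontal lines group means and bars SD (n = 5, 5, 4 and 4), and the dotted line separates the models. Wild type 2 (8.38) and control ASO 4 (7.60) are the highest arrays of their models for the interferon-stimulated genes.

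The height of the 2 arrays differed widely between members. Wild type 2 exceeded the next wild-type array by 1 or more on the log2 scale, which is 2-fold, for 13 of 35 members, against 158 of 17097 genes (0.924%). Control ASO 4 exceeded the next control ASO array by as much for 14 members, against 203 genes (1.19%). Both arrays did so for 12 members, namely Irf1, Zbp1, Ifit1, Ifit2, Rsad2, Rtp4, Gbp2, Gbp3, Igtp, Irgm1, Cxcl9 and Cxcl10. The chemokine gene Cxcl10 had the largest gaps of all members, 2.63 in wild type 2 (6.19-fold over the next array) and 4.62 in control ASO 4 (24.7-fold). Gbp2 was second in both, with 2.04 and 3.75 (4.1-fold and 13.5-fold), and Cxcl9 had 1.81 and 3.53 (3.51-fold and 11.6-fold). Igtp and Irgm1 had gaps of like size in the 2 arrays, 1.98 and 2.09 for Igtp and 1.79 and 1.74 for Irgm1.

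At the other end, the gaps of Oas2 were 0.08 in wild type 2 and -0.03 in control ASO 4, and those of Mx2 were 0.18 and 0.11. Usp18 stood out in control ASO 4 alone, with a gap of 1.52 there and 0.34 in wild type 2, and Cmpk2 passed 1 in wild type 2 alone, with 1.09 there and 0.55 in control ASO 4. Trim25 was lowest in control ASO 4, -0.52 relative to the highest of the other control ASO arrays. Across the 35 members the 2 gaps had a Pearson correlation of 0.896, a description over genes that vary together and are not independent. The members with a gap of 1 or more in either array numbered 15. Of the 12 of these with an upstream window, 8 (66.7%) held an ISRE core, against 10 of all 26 measured members with a window (38.5%). The matches of Gbp3 and Ifit3 lie in windows that are not at the gene start. The share of 66.7% was read after the gaps were known, and a link between motif and gap was not tested.

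**Figure D2:**
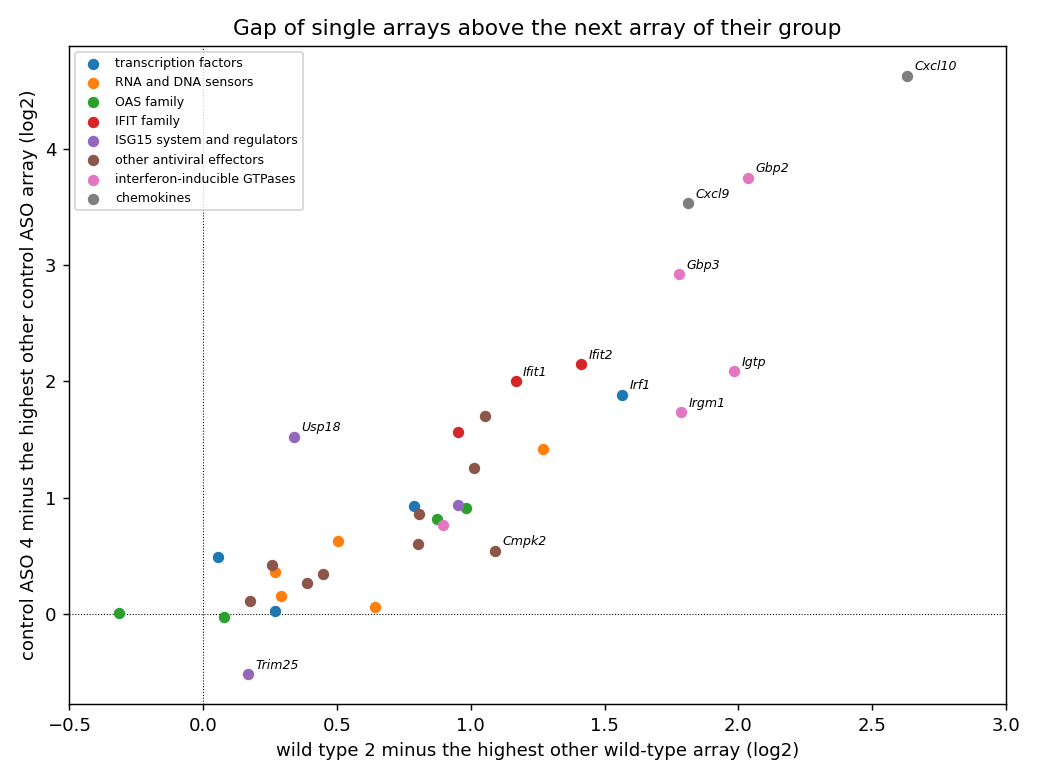
Log2 gap of wild type 2 above the highest other wild-type array (x axis) against the gap of control ASO 4 above the highest other control ASO array (y axis), 1 point per member, coloured by role. Chemokine and GTPase genes reach the upper right (Cxcl10 at 2.63 and 4.62), whereas Oas2 and Oas3 lie near 0 in control ASO 4 and Trim25 lies below 0.

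Another array, ACAT2 ASO 1, was the highest of its 4 for 27 of 35 members, against 27.4% of all genes, and exceeded the next array by 1 or more for Gbp2 (1.23) and Cxcl9 (1.80). Among the transgenic livers no array exceeded the next by 1 or more for any member. Transgenic 1 was the highest for 17 members and transgenic 3 for 14, and transgenic 2 was the lowest for 20. The SD of arrays around their group means had a median of 0.427 over the members, against 0.111 over all genes. Cxcl10 ranked 4 of 17097 genes by this spread, Cxcl9 10 and Gbp2 13, and 9 of the 35 members were among the 171 genes (1%) with the largest spread.

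**Figure D3:**
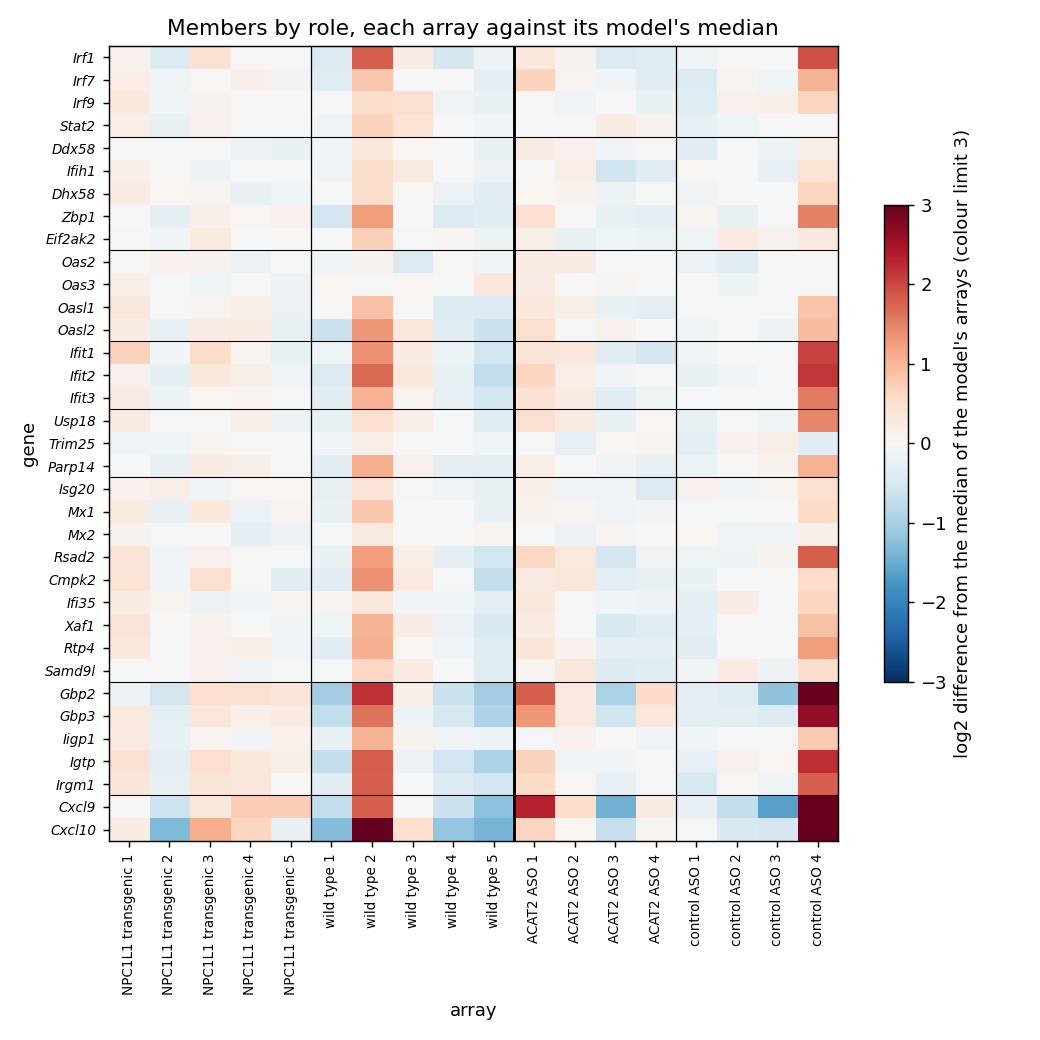
Log2 difference of each array from the median of its model's 10 or 8 arrays, with the 35 members in rows by role and the arrays in columns, and the colour scale ending at 3. Wild type 2 and control ASO 4 are red in nearly all rows, and ACAT2 ASO 1 is red for Gbp2, Gbp3 and Cxcl9.

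No member passed the test in transgenic against wild-type liver. Limma, fitted on all 17097 genes and adjusted over them by Benjamini-Hochberg with a threshold of 0.05, called 0 of 35 members, while 39 genes in all (0.228%) were called. At an unadjusted p under 0.05 the count of members was also 0, against 10.9% of all genes. For 0 members did the arrays of the 2 groups fail to overlap, against 1.42% of all genes higher and 0.801% lower without overlap. The differences ran from -0.18 for Stat2 to 0.42 for Cxcl9, 16 of 35 were above 0, and their median was -0.0059, against 0.0058 over all genes. As livers were profiled whole, fewer cells of a type and less RNA per cell cannot be told apart.

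The ACAT2 ASO comparison likewise called 0 of 35 members, against 102 of 17097 genes (0.597%). Oas2 was the 1 member with an unadjusted p under 0.05, against 13.3% of all genes, and no member's groups failed to overlap, against 4.39% of genes higher and 4.67% lower without overlap. The differences ran from -0.86 for Cxcl10 to 0.23 for Oas2. Only 7 of 35 were above 0, and the median was -0.20, against -0.00056 over all genes. That sign rested on control ASO 4, as the median was 0.075 without it.

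Leaving out wild type 2 and control ASO 4 together moved both sets of differences upward. This follows from the choice of arrays, as they were the highest of their groups for 34 and 33 of 35 members. The counts above 0 that follow are thus no sign of an effect by themselves. Over all genes the arrays left out had not been picked for being high. In the transgenic comparison 30 of 35 members then lay above 0, with a median of 0.21, against 0.0039 over all genes, and in the ASO comparison 26 of 35 lay above 0, with a median of 0.075, against -0.0011. The lean above 0 in the ASO comparison rested on ACAT2 ASO 1. Without that array as well, an alternative added after seeing the data, 17 of 35 members lay above 0. The median was then -0.027, still higher than with all arrays. With the 2 arrays left out, 0 members were called in either comparison, against 42 genes (0.246%) and 85 genes (0.497%), and no member's groups failed to overlap. Of all genes, 2.45% were higher and 1.61% lower without overlap in the transgenic comparison, and 6.95% higher and 7.7% lower in the ASO comparison. At an unadjusted p under 0.05, 5 members were higher in the transgenic comparison, against 6.56% of all genes, and 4 in the ASO comparison, against 5.99%. These counts cannot be read against those shares. Leaving out arrays picked as high in the members raises their differences and narrows their spread, which does not hold for all genes. The lowest adjusted p was that of Igtp in transgenic liver, 0.096 by limma.

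**Figure D4:**
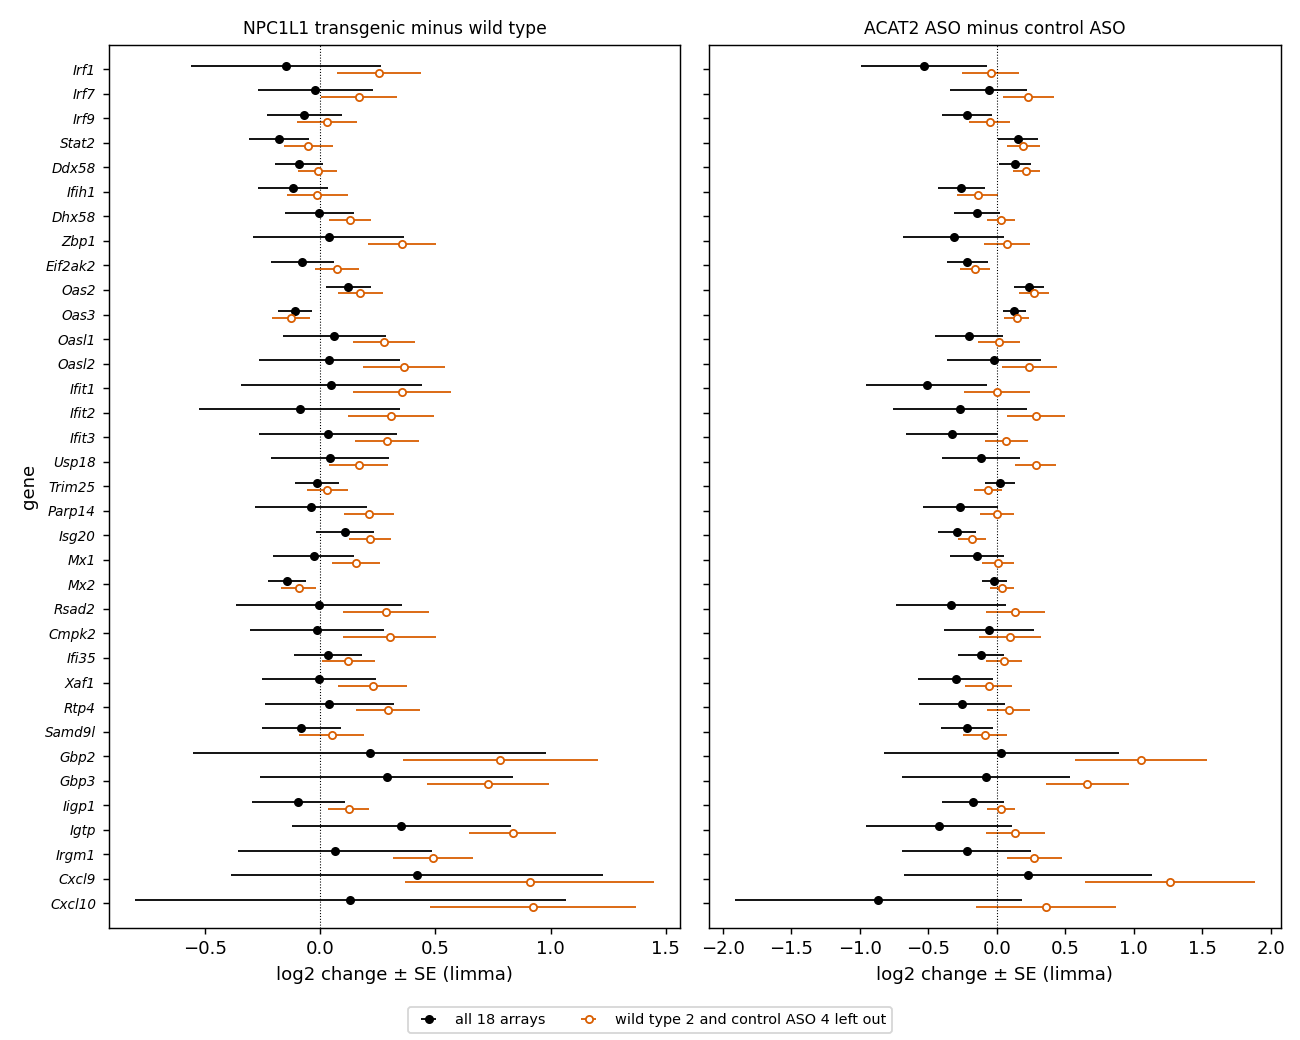
Log2 difference ± SE (limma) of each measured member, for NPC1L1 transgenic minus wild type (left) and ACAT2 ASO minus control ASO (right). Filled black points use all 18 arrays and open orange points leave out wild type 2 and control ASO 4. Most orange points lie to the right of the black ones (30 of 35 above 0 on the left, 26 of 35 on the right). This shift follows from leaving out arrays that were the highest of their groups for nearly all members.

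Among the transcription factors, Irf1 encodes a factor induced by interferon gamma that drives many of the other members. Irf1 read 8.03, 7.49, 8.33, 7.94 and 7.87 in transgenic livers 1 to 5, against 7.47, 9.69, 8.13, 7.37 and 7.75 in wild-type livers 1 to 5. Irf1 in the ASO model read 7.82, 7.60, 7.08 and 7.15 after ACAT2 ASO (arrays 1 to 4), against 7.37, 7.48, 7.52 and 9.41 after control ASO. All 5 transgenic livers lay within the range of wild type, which wild type 2 extends, and ACAT2 ASO 3 and 4 lay below every control ASO liver. Irf1's log2 difference was -0.15 ± 0.41 for transgenic minus wild-type liver (SE, limma adjusted p = 0.944) and -0.53 ± 0.46 for ACAT2 ASO minus control ASO liver (limma adjusted p = 0.686). Irf1's differences without wild type 2 and control ASO 4 were 0.25 ± 0.18 in the transgenic and -0.05 ± 0.21 in the ASO comparison (limma adjusted p = 0.622 and 0.951). Stat2, which encodes a part of the complex that answers type I interferon, varied less between arrays. Stat2 read 6.02, 5.61, 5.98, 5.83 and 5.79 in transgenic livers 1 to 5, against 5.73, 6.53, 6.25, 5.85 and 5.75 in wild-type livers 1 to 5. Stat2 in the ASO model read 5.40, 5.33, 5.61 and 5.51 after ACAT2 ASO (arrays 1 to 4), against 5.16, 5.26, 5.38 and 5.41 after control ASO. Transgenic 2 was the lowest of the 10 livers, ACAT2 ASO 3 and 4 were above every control ASO liver, and both pairs of groups overlapped. Stat2's log2 difference was -0.18 ± 0.13 for transgenic minus wild-type liver (SE, limma adjusted p = 0.677) and 0.16 ± 0.15 for ACAT2 ASO minus control ASO liver (limma adjusted p = 0.713).

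Irf9 encodes the DNA-binding part of that complex. Irf9 read 7.71, 7.31, 7.49, 7.38 and 7.40 in transgenic livers 1 to 5, against 7.36, 7.92, 7.87, 7.30 and 7.20 in wild-type livers 1 to 5. Irf9 in the ASO model read 6.75, 6.63, 6.73 and 6.54 after ACAT2 ASO (arrays 1 to 4), against 6.38, 6.86, 6.90 and 7.39 after control ASO. The transgenic and the ACAT2 ASO livers all lay within the range of the livers they were compared with, and for Irf9 wild type 3 was nearly as high as wild type 2. Irf9's log2 difference was -0.07 ± 0.16 for transgenic minus wild-type liver (SE, limma adjusted p = 0.93) and -0.22 ± 0.18 for ACAT2 ASO minus control ASO liver (limma adjusted p = 0.668). Irf7, the factor that amplifies type I interferon production, differed by -0.02 ± 0.25 in transgenic and -0.06 ± 0.28 in ACAT2 ASO liver (limma adjusted p = 0.987 and 0.958), and its gaps were 0.79 in wild type 2 and 0.93 in control ASO 4. All 4 transcription factors were below 0 in the transgenic comparison, and 3 of 4 were above 0 without wild type 2 and control ASO 4.

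The sensors detect foreign nucleic acid. Ddx58 encodes RIG-I, a receptor for viral RNA. Ddx58 read 7.64, 7.64, 7.62, 7.46 and 7.43 in transgenic livers 1 to 5, against 7.55, 7.97, 7.68, 7.64 and 7.40 in wild-type livers 1 to 5. Ddx58 in the ASO model read 7.39, 7.27, 7.07 and 7.14 after ACAT2 ASO (arrays 1 to 4), against 6.83, 7.17, 7.0028 and 7.33 after control ASO. Transgenic livers lay inside the wild-type range, and ACAT2 ASO 1 was the highest of its 8 arrays. Ddx58's log2 difference was -0.09 ± 0.10 for transgenic minus wild-type liver (SE, limma adjusted p = 0.82) and 0.13 ± 0.12 for ACAT2 ASO minus control ASO liver (limma adjusted p = 0.688). Ifih1 encodes MDA5, which recognises long double-stranded RNA. Ifih1 read 7.89, 7.73, 7.57, 7.73 and 7.71 in transgenic livers 1 to 5, against 7.62, 8.26, 7.99, 7.77 and 7.56 in wild-type livers 1 to 5. Ifih1 in the ASO model read 7.28, 7.48, 6.70 and 6.95 after ACAT2 ASO (arrays 1 to 4), against 7.35, 7.31, 7.06 and 7.71 after control ASO. ACAT2 ASO 3 and 4 lay below every control ASO liver, ACAT2 ASO 1 and 2 inside their range, and the transgenic livers inside the wild-type range. Ifih1's log2 difference was -0.12 ± 0.15 for transgenic minus wild-type liver (SE, limma adjusted p = 0.856) and -0.26 ± 0.17 for ACAT2 ASO minus control ASO liver (limma adjusted p = 0.561).

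Eif2ak2 encodes PKR, a kinase that halts translation on double-stranded RNA. Eif2ak2 read 5.50, 5.37, 5.74, 5.43 and 5.43 in transgenic livers 1 to 5, against 5.46, 6.17, 5.40, 5.53 and 5.30 in wild-type livers 1 to 5. Eif2ak2 in the ASO model read 4.70, 4.31, 4.40 and 4.37 after ACAT2 ASO (arrays 1 to 4), against 4.39, 4.77, 4.65 and 4.83 after control ASO. Wild type 2 stood off from the other wild-type arrays, while control ASO 4 was only 0.06 above the next. Eif2ak2's log2 difference was -0.08 ± 0.14 for transgenic minus wild-type liver (SE, limma adjusted p = 0.903) and -0.21 ± 0.15 for ACAT2 ASO minus control ASO liver (limma adjusted p = 0.605). Zbp1, a sensor of Z-form nucleic acid that can start cell death, had gaps of 1.27 in wild type 2 and 1.41 in control ASO 4. Dhx58, which encodes the RIG-I relative LGP2, had gaps of 0.50 and 0.63. Zbp1 differed by 0.04 ± 0.33 in transgenic liver, and by 0.35 ± 0.15 without the 2 arrays (limma adjusted p = 0.984 and 0.365).

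Oas genes encode synthetases of the signal nucleotide that activates RNase L. Oas2 read 5.53, 5.63, 5.60, 5.31 and 5.46 in transgenic livers 1 to 5, against 5.35, 5.60, 5.04, 5.52 and 5.41 in wild-type livers 1 to 5. Oas2 in the ASO model read 6.07, 6.06, 5.85 and 5.82 after ACAT2 ASO (arrays 1 to 4), against 5.65, 5.53, 5.86 and 5.83 after control ASO. ACAT2 ASO 1 and 2 lay above every control ASO liver, ACAT2 ASO 3 and 4 among them, and wild type 3 was the lowest of the 10 livers of its model. Oas2's log2 difference was 0.12 ± 0.10 for transgenic minus wild-type liver (SE, limma adjusted p = 0.717) and 0.23 ± 0.11 for ACAT2 ASO minus control ASO liver (limma adjusted p = 0.362). Oas3 read 4.92, 4.69, 4.61, 4.72 and 4.59 in transgenic livers 1 to 5, against 4.78, 4.74, 4.78, 4.72 and 5.06 in wild-type livers 1 to 5. Oas3 in the ASO model read 4.24, 4.01, 4.07 and 3.95 after ACAT2 ASO (arrays 1 to 4), against 3.98, 3.84, 3.94 and 3.99 after control ASO. Wild type 5, not wild type 2, was the highest wild-type liver, and 3 of 4 ACAT2 ASO livers lay above every control ASO liver. Oas3's log2 difference was -0.11 ± 0.07 for transgenic minus wild-type liver (SE, limma adjusted p = 0.644) and 0.13 ± 0.08 for ACAT2 ASO minus control ASO liver (limma adjusted p = 0.55). Without wild type 2 and control ASO 4 the ASO difference was 0.27 ± 0.11 for Oas2 and 0.15 ± 0.09 for Oas3, close to the values with all arrays (limma adjusted p = 0.299 and 0.517). The Oas-like genes Oasl1 and Oasl2, which modulate antiviral signalling, had gaps of 0.87 and 0.98 in wild type 2 and 0.82 and 0.92 in control ASO 4.

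**Figure D5:**
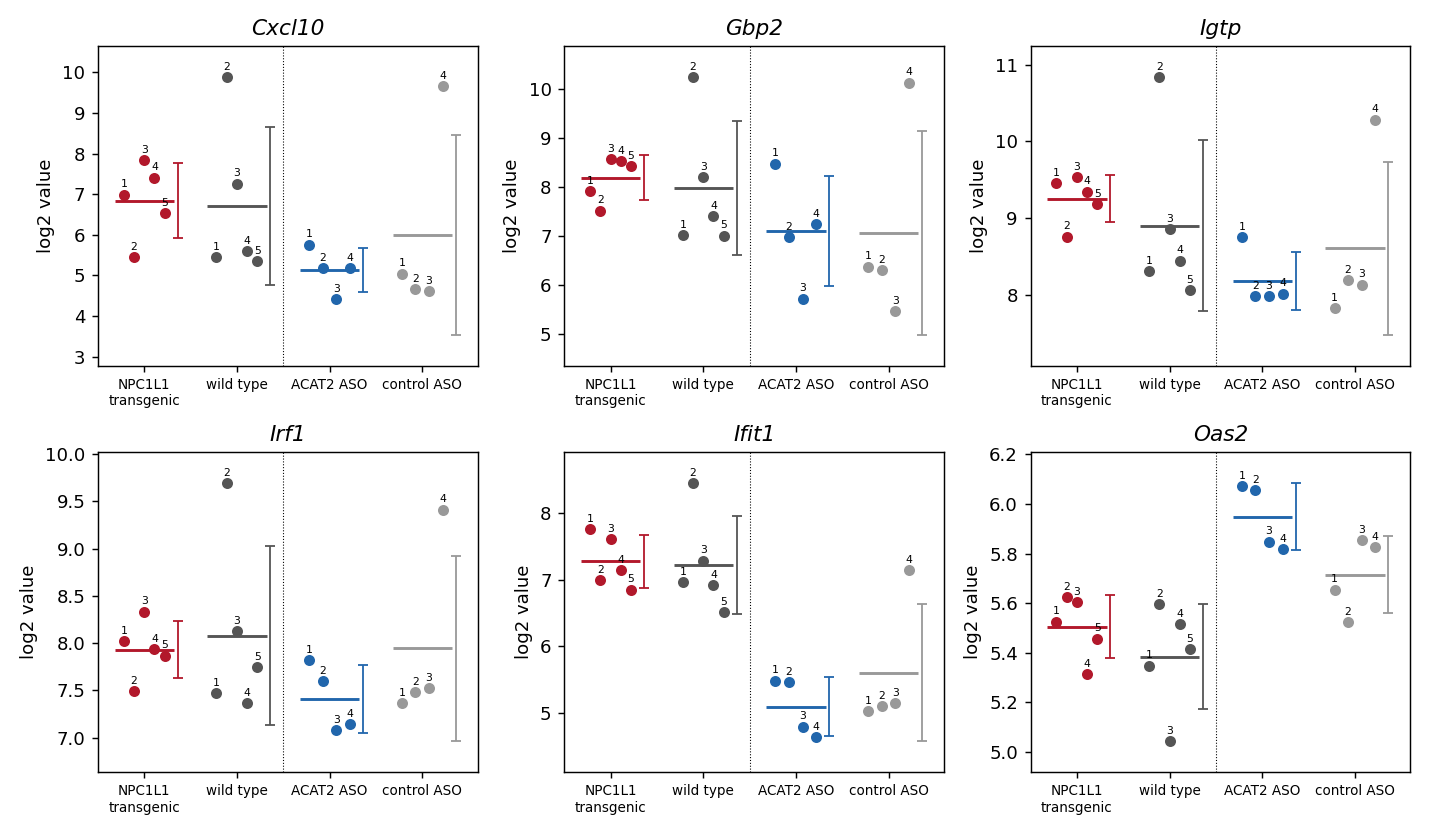
Log2 value of Cxcl10, Gbp2, Igtp, Irf1, Ifit1 and Oas2 on each array, with replicate numbers, group means (horizontal lines) and SD (bars; n = 5, 5, 4 and 4); the y axes differ between panels. Wild type 2 and control ASO 4 stand above their groups for the first 5 genes. For Oas2 wild type 2 is only 0.08 above the next array, and control ASO 4 is not the highest.

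Ifit proteins bind viral RNA that lacks the host's cap modification, and their genes form a cluster on chromosome 19. Ifit1 read 7.77, 7.0004, 7.61, 7.14 and 6.85 in transgenic livers 1 to 5, against 6.96, 8.45, 7.29, 6.92 and 6.52 in wild-type livers 1 to 5. Ifit1 in the ASO model read 5.48, 5.46, 4.79 and 4.63 after ACAT2 ASO (arrays 1 to 4), against 5.03, 5.10, 5.14 and 7.14 after control ASO. Control ASO 4 was 4.00-fold above the next control ASO array, and ACAT2 ASO 3 and 4 were the lowest of the 8 livers. Ifit1's log2 difference was 0.05 ± 0.39 for transgenic minus wild-type liver (SE, limma adjusted p = 0.983) and -0.51 ± 0.44 for ACAT2 ASO minus control ASO liver (limma adjusted p = 0.684). Ifit2 read 6.90, 6.47, 7.09, 6.96 and 6.64 in transgenic livers 1 to 5, against 6.35, 8.49, 7.08, 6.56 and 6.04 in wild-type livers 1 to 5. Ifit2 in the ASO model read 5.66, 5.20, 4.92 and 5.02 after ACAT2 ASO (arrays 1 to 4), against 4.82, 4.92, 4.9952 and 7.14 after control ASO. Every transgenic and every ACAT2 ASO liver lay within the range of the group it was compared with. Ifit2's log2 difference was -0.09 ± 0.44 for transgenic minus wild-type liver (SE, limma adjusted p = 0.971) and -0.27 ± 0.49 for ACAT2 ASO minus control ASO liver (limma adjusted p = 0.877). Ifit3, whose probe set may also read its near-identical copy, had gaps of 0.95 and 1.56. Without wild type 2 and control ASO 4 the 3 Ifit genes were 0.35 ± 0.21, 0.31 ± 0.19 and 0.29 ± 0.14 in the transgenic comparison for Ifit1, Ifit2 and Ifit3 (limma adjusted p = 0.55, 0.554 and 0.435).

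Usp18 removes the ubiquitin-like protein ISG15 from its targets and restrains the type I receptor. Its differences were 0.04 ± 0.26 in transgenic and -0.12 ± 0.29 in ACAT2 ASO liver (limma adjusted p = 0.979 and 0.913). Trim25, the ubiquitin ligase that helps to activate RIG-I, differed by -0.01 ± 0.10 and 0.03 ± 0.11 (limma adjusted p = 0.982 and 0.95). Parp14, an ADP-ribosyltransferase, had gaps of 0.95 in wild type 2 and 0.94 in control ASO 4. None of these 3 genes passed the test in any comparison.

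The other antiviral effectors act on viral genomes, entry or nucleotide supply. Isg20, an exonuclease gene, read 4.96, 5.04, 4.72, 4.90 and 4.88 in transgenic livers 1 to 5, against 4.61, 5.22, 4.77, 4.73 and 4.62 in wild-type livers 1 to 5. Isg20 in the ASO model read 4.81, 4.54, 4.53 and 4.25 after ACAT2 ASO (arrays 1 to 4), against 4.80, 4.59, 4.75 and 5.15 after control ASO. ACAT2 ASO 2, 3 and 4 lay below every control ASO liver, and transgenic 1, 2, 4 and 5 lay above every wild-type liver but wild type 2. Isg20's log2 difference was 0.11 ± 0.12 for transgenic minus wild-type liver (SE, limma adjusted p = 0.827) and -0.29 ± 0.14 for ACAT2 ASO minus control ASO liver (limma adjusted p = 0.383). Mx2, a dynamin-like GTPase gene, read 5.62, 5.46, 5.52, 5.23 and 5.35 in transgenic livers 1 to 5, against 5.45, 5.78, 5.55, 5.52 and 5.61 in wild-type livers 1 to 5. Mx2 in the ASO model read 5.26, 5.07, 5.32 and 5.23 after ACAT2 ASO (arrays 1 to 4), against 5.30, 5.11, 5.15 and 5.41 after control ASO. Transgenic 4 and 5 were below every wild-type liver, while the ASO groups overlapped. Mx2's log2 difference was -0.14 ± 0.08 for transgenic minus wild-type liver (SE, limma adjusted p = 0.553) and -0.02 ± 0.09 for ACAT2 ASO minus control ASO liver (limma adjusted p = 0.96). Its adjusted p in the transgenic comparison was the lowest of the 35 members. Rsad2 (viperin) and Cmpk2, neighbours on chromosome 12 that act on nucleotides, had gaps of 1.05 and 1.09 in wild type 2 and 1.70 and 0.55 in control ASO 4. For Mx1, Ifi35, Xaf1, Rtp4 and Samd9l the transgenic differences lay between -0.08 and 0.04 and the ASO differences between -0.30 and -0.12.

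The interferon-inducible GTPases attack the vacuoles in which intracellular pathogens live, and they are known above all as targets of interferon gamma. Gbp2 read 7.90, 7.51, 8.56, 8.53 and 8.42 in transgenic livers 1 to 5, against 7.01, 10.24, 8.20, 7.40 and 6.998 in wild-type livers 1 to 5. Gbp2 in the ASO model read 8.47, 6.96, 5.71 and 7.23 after ACAT2 ASO (arrays 1 to 4), against 6.37, 6.30, 5.46 and 10.12 after control ASO. Transgenic 3, 4 and 5 lay above every wild-type liver but wild type 2, and ACAT2 ASO 1 was second only to control ASO 4 among the 8. Gbp2's log2 difference was 0.21 ± 0.77 for transgenic minus wild-type liver (SE, limma adjusted p = 0.958) and 0.03 ± 0.86 for ACAT2 ASO minus control ASO liver (limma adjusted p = 0.995). Gbp2's differences without wild type 2 and control ASO 4 were 0.78 ± 0.42 in the transgenic and 1.05 ± 0.48 in the ASO comparison (limma adjusted p = 0.502 and 0.349). Gbp3, its neighbour on chromosome 3, read 8.42, 7.85, 8.47, 8.27 and 8.36 in transgenic livers 1 to 5, against 7.37, 9.74, 7.96, 7.63 and 7.20 in wild-type livers 1 to 5. Gbp3 in the ASO model read 8.13, 7.11, 6.23 and 7.14 after ACAT2 ASO (arrays 1 to 4), against 6.53, 6.53, 6.42 and 9.45 after control ASO. Of the 5 transgenic livers, 4 lay above all wild-type livers but wild type 2, and ACAT2 ASO 3 was the lowest of the 8. Gbp3's log2 difference was 0.29 ± 0.55 for transgenic minus wild-type liver (SE, limma adjusted p = 0.909) and -0.08 ± 0.61 for ACAT2 ASO minus control ASO liver (limma adjusted p = 0.977). Gbp3's differences without wild type 2 and control ASO 4 were 0.73 ± 0.27 in the transgenic and 0.66 ± 0.30 in the ASO comparison (limma adjusted p = 0.303 and 0.348).

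Igtp encodes the GTPase Irgm3. Igtp read 9.46, 8.76, 9.53, 9.35 and 9.19 in transgenic livers 1 to 5, against 8.31, 10.84, 8.86, 8.45 and 8.07 in wild-type livers 1 to 5. Igtp in the ASO model read 8.75, 7.99, 7.99 and 8.02 after ACAT2 ASO (arrays 1 to 4), against 7.83, 8.20, 8.14 and 10.28 after control ASO. Transgenic 1, 3, 4 and 5 lay above every wild-type liver but wild type 2, and transgenic 2 lay just below wild type 3. Igtp's log2 difference was 0.35 ± 0.48 for transgenic minus wild-type liver (SE, limma adjusted p = 0.862) and -0.42 ± 0.53 for ACAT2 ASO minus control ASO liver (limma adjusted p = 0.806). Igtp's differences without wild type 2 and control ASO 4 were 0.83 ± 0.19 in the transgenic and 0.13 ± 0.22 in the ASO comparison (limma adjusted p = 0.096 and 0.839). When ACAT2 ASO 1 was left out as well, an alternative added after seeing the data, Igtp passed the test in the transgenic comparison, with the same difference of 0.83 (limma adjusted p = 0.0401). It was then the 1 member called, against 0.287% of all genes. ACAT2 ASO 1 belongs to the other model and enters this comparison only through the shared estimate of the spread. Wild type 2 was left out for being high in these genes, so the share over all genes is no like measure. In a fit of the transgenic model's own arrays without wild type 2, Igtp was not called (limma adjusted p = 0.136), and over the 18 fits that leave out a single array its adjusted p ran from 0.407 to 0.944 by limma. Irgm1, a regulator of these GTPases, differed by 0.07 ± 0.42 in transgenic liver with all arrays and 0.49 ± 0.17 without the 2 arrays (limma adjusted p = 0.981 and 0.293). Iigp1, another GTPase of this family, differed by -0.10 ± 0.20 and 0.12 ± 0.09 (limma adjusted p = 0.92 and 0.624).

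Cxcl9 and Cxcl10, adjacent genes on chromosome 5, encode chemokines that draw activated T and natural killer cells. Cxcl9 read 9.83, 9.18, 10.13, 10.56 and 10.52 in transgenic livers 1 to 5, against 9.07, 11.58, 9.76, 9.15 and 8.56 in wild-type livers 1 to 5. Cxcl9 in the ASO model read 10.89, 9.09, 7.14 and 8.81 after ACAT2 ASO (arrays 1 to 4), against 8.34, 7.86, 6.96 and 11.87 after control ASO. Transgenic 1, 3, 4 and 5 were above every wild-type liver but wild type 2, and the ACAT2 ASO livers spanned most of the range between the lowest control ASO liver and control ASO 4. Cxcl9's log2 difference was 0.42 ± 0.81 for transgenic minus wild-type liver (SE, limma adjusted p = 0.911) and 0.23 ± 0.90 for ACAT2 ASO minus control ASO liver (limma adjusted p = 0.948). Cxcl9's differences without wild type 2 and control ASO 4 were 0.91 ± 0.54 in the transgenic and 1.26 ± 0.62 in the ASO comparison (limma adjusted p = 0.542 and 0.382). Cxcl10 read 6.99, 5.44, 7.85, 7.41 and 6.53 in transgenic livers 1 to 5, against 5.46, 9.89, 7.26, 5.60 and 5.36 in wild-type livers 1 to 5. Cxcl10 in the ASO model read 5.76, 5.18, 4.41 and 5.18 after ACAT2 ASO (arrays 1 to 4), against 5.05, 4.66, 4.62 and 9.67 after control ASO. The transgenic livers lay within the wild-type range, and the ACAT2 ASO livers were close to control ASO 1, 2 and 3 and far below control ASO 4. Cxcl10's log2 difference was 0.13 ± 0.94 for transgenic minus wild-type liver (SE, limma adjusted p = 0.982) and -0.86 ± 1.05 for ACAT2 ASO minus control ASO liver (limma adjusted p = 0.795). Cxcl10's differences without wild type 2 and control ASO 4 were 0.92 ± 0.45 in the transgenic and 0.36 ± 0.51 in the ASO comparison (limma adjusted p = 0.435 and 0.812). The sign of its ASO difference thus turned with the 2 arrays left out.

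The effect of the transgene and that of the ACAT2 ASO were also set against each other in the same fit. Limma called 0 of 35 members for the difference between the 2 effects, against 183 genes (1.07%), and 2 members had an unadjusted p under 0.05, against 15.4% of genes. The transgenic effect exceeded the ASO effect for 29 of 35 members, with a median difference of 0.16, against 0.0081 over all genes. Without wild type 2 alone the median was 0.38, without control ASO 4 alone it was -0.10, and without both it was 0.13. Oas3 had the lowest adjusted p, 0.319 by limma, with a difference between the effects of -0.24.

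Other genes of the interferon pathway were read from 5 further lists, of which 129 of 155 genes were measured. In the transgenic comparison limma called 1 of the 129, against 0.228% of all genes, and 5 had an unadjusted p under 0.05, against 10.9%. In the ASO comparison it called 0, against 0.597%, and 7 had an unadjusted p under 0.05, against 13.3%. Among 14 measured genes of interferons and related cytokines, 0 were called in either comparison. Ifna11, whose probe set may read other type I interferon genes of near-identical sequence, read 3.48, 3.24, 3.35, 3.23 and 3.38 in transgenic livers 1 to 5, against 3.38, 3.51, 3.63, 3.56 and 3.54 in wild-type livers 1 to 5 (difference -0.19 ± 0.06, limma adjusted p = 0.196). Ifng, the gene of interferon gamma, read 3.77, 3.63, 3.96, 4.04 and 3.66 in transgenic livers 1 to 5, against 3.72, 5.02, 3.90, 3.69 and 3.88 in wild-type livers 1 to 5. Ifng in the ASO model read 3.75, 3.80, 3.63 and 3.72 after ACAT2 ASO (arrays 1 to 4), against 3.80, 3.77, 3.64 and 4.88 after control ASO. Ifng was the 1 of these 14 genes with a gap of 1 or more in both wild type 2 (1.12) and control ASO 4 (1.08), and the other 16 arrays lay between 3.63 and 4.04. These lie below every array's median (4.38 to 4.65), and whether the probe set was above background on them was not tested, so the size of its gaps and differences is uncertain. Ifng's log2 difference was -0.23 ± 0.24 for transgenic minus wild-type liver (SE, limma adjusted p = 0.806) and -0.29 ± 0.27 for ACAT2 ASO minus control ASO liver (limma adjusted p = 0.705).

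Of 11 measured receptor and JAK-STAT genes, none had such a gap in either array. Ifnar1, a chain of the type I receptor, read 6.23, 6.20, 6.36, 6.38 and 6.25 in transgenic livers 1 to 5, against 6.01, 6.29, 6.15, 6.11 and 6.18 in wild-type livers 1 to 5. Ifnar1 in the ASO model read 6.33, 6.36, 6.29 and 6.21 after ACAT2 ASO (arrays 1 to 4), against 6.67, 6.52, 6.64 and 6.48 after control ASO. Every ACAT2 ASO liver lay below every control ASO liver, while the groups of the transgenic model overlapped. Ifnar1's log2 difference was 0.14 ± 0.06 for transgenic minus wild-type liver (SE, limma adjusted p = 0.39) and -0.28 ± 0.06 for ACAT2 ASO minus control ASO liver (limma adjusted p = 0.0591). Without wild type 2 and control ASO 4 it was called in the ASO comparison (-0.31 ± 0.06, limma adjusted p = 0.0389). Wild type 2 belongs to the other model, and without control ASO 4 alone Ifnar1 was not called (limma adjusted p = 0.0524). Nor was it called in a fit of the ASO model's own arrays without control ASO 4 (limma adjusted p = 0.139). Of 18 fits that leave out a single array, 3 called it in the ASO comparison. The difference between the 2 effects was 0.41 (limma adjusted p = 0.0315). That call was lost in 8 of 18 fits that leave out a single array, namely wild type 3, transgenic 3 or 4, ACAT2 ASO 1, 3 or 4, or control ASO 1 or 3, where limma's adjusted p reached 0.0724. Stat3 differed by 0.23 ± 0.14 and the receptor kinase gene Tyk2 by 0.11 ± 0.08 in ACAT2 ASO liver (limma adjusted p = 0.526 and 0.622).

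Among 21 measured genes that produce or restrain interferon, 0 were called in either comparison. Mavs, the mitochondrial adaptor of RIG-I and MDA5, differed by -0.14 ± 0.07 in transgenic and -0.23 ± 0.07 in ACAT2 ASO liver (limma adjusted p = 0.459 and 0.155). Nlrx1, which restrains MAVS, differed by -0.35 ± 0.12 after ACAT2 ASO (limma adjusted p = 0.213), and its ASO groups did not overlap. Irf2, a factor that competes with IRF1, differed by -0.28 ± 0.12 (limma adjusted p = 0.311). Irf8, named after its values were seen, was the 1 gene of this list with a gap of 1 or more in both arrays, 1.25 in wild type 2 and 1.77 in control ASO 4.

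A list of other interferon-inducible genes, 65 of them measured, gave 1 call in transgenic liver and 0 after ACAT2 ASO. Ifi27, a mitochondrial protein gene, read 10.32, 10.28, 9.90, 9.95 and 9.81 in transgenic livers 1 to 5, against 9.12, 9.29, 9.11, 9.20 and 9.19 in wild-type livers 1 to 5. Ifi27 in the ASO model read 9.39, 9.0018, 9.08 and 8.79 after ACAT2 ASO (arrays 1 to 4), against 9.29, 9.15, 9.04 and 9.68 after control ASO. All 5 transgenic livers lay above all wild-type livers, and wild type 2 was no more than 0.09 above the next. Ifi27's log2 difference was 0.87 ± 0.13 for transgenic minus wild-type liver (SE, limma adjusted p = 0.00462) and -0.23 ± 0.14 for ACAT2 ASO minus control ASO liver (limma adjusted p = 0.534). Tdrd7, a tudor domain protein gene, read 7.85, 7.57, 7.82, 7.71 and 7.62 in transgenic livers 1 to 5, against 7.45, 7.82, 7.52, 7.38 and 7.54 in wild-type livers 1 to 5. Tdrd7 in the ASO model read 6.75, 6.83, 6.74 and 6.39 after ACAT2 ASO (arrays 1 to 4), against 7.10, 7.16, 6.96 and 7.34 after control ASO. Every ACAT2 ASO liver lay below every control ASO liver, and the transgenic model overlapped. Tdrd7's log2 difference was 0.17 ± 0.10 for transgenic minus wild-type liver (SE, limma adjusted p = 0.549) and -0.46 ± 0.11 for ACAT2 ASO minus control ASO liver (limma adjusted p = 0.0595). The effects in the 2 models differed for both genes, by 1.10 for Ifi27 and 0.64 for Tdrd7 (limma adjusted p = 0.0112 and 0.0441). Ifi27's call kept its side of the threshold without any single array, with limma's adjusted p up to 0.0318. Tdrd7's was lost in 13 of 18 such fits, up to 0.084, and remained without wild type 2, transgenic 2 or 5, ACAT2 ASO 2 or control ASO 3. Trim34a differed by -0.24 ± 0.10 and Nos2, the inducible nitric oxide synthase gene, by 0.10 ± 0.05 in transgenic liver (limma adjusted p = 0.396 and 0.531).

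Gaps of 1 or more in both wild type 2 and control ASO 4 occurred in 12 of these 65 genes, which were named after their values were seen: Ifi47, Ifi204, Ifi205, Ly6c1, Gbp7, Irgm2, Tgtp1, Epsti1, Ccl5, Cxcl11, Cd274 and Fgl2. Tgtp1, a GTPase gene whose probe set may also read its near-identical neighbour, had gaps of 2.70 and 4.16. Cd274, the gene of the inhibitory ligand PD-L1, had gaps of 2.34 and 2.78. In the antigen presentation list the same held for 6 of 19 measured genes, the class II genes H2-Aa, H2-Ab1, H2-Eb1 and H2-DMa, the invariant chain gene Cd74 and the immunoproteasome gene Psmb9. H2-Ab1 had gaps of 1.52 and 1.89, and Psmb9 of 1.03 and 1.37. H2-Ab1, also named after its values were seen, was high in transgenic 5 too, as it read 8.61, 7.91, 8.61, 9.21 and 10.05 in transgenic livers 1 to 5, against 7.98, 9.84, 8.32, 8.23 and 8.27 in wild-type livers 1 to 5. Of the 17097 genes, 115 had gaps of this size in both arrays.

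Markers of other cells moved on the same 2 arrays in part. Of 14 macrophage and Kupffer cell markers, all measured, 3 had a gap of 1 or more in wild type 2 and 7 in control ASO 4, with Marco, Timd4 and Adgre1 in both. Marco had gaps of 2.23 and 3.77, while the Kupffer cell marker Clec4f had -0.16 and 0.23. The mean of the 14 markers was 8.39, 8.16, 8.57, 8.65 and 8.79 in transgenic livers 1 to 5, against 8.02, 9.41, 8.61, 8.45 and 8.28 in wild-type livers 1 to 5. It was 9.22, 8.28, 7.49 and 8.01 after ACAT2 ASO (arrays 1 to 4), against 7.44, 7.61, 7.52 and 8.70 after control ASO. ACAT2 ASO 1 was the highest array of its model for these markers, above control ASO 4, whereas for the interferon-stimulated genes it lay below control ASO 4. In the ASO comparison 14 of 14 macrophage markers lay above 0, with a median of 0.40 over all arrays. The median was 0.65 without wild type 2 and control ASO 4. Without ACAT2 ASO 1 as well it was 0.38, against -0.0014 over all genes. In these fits 0 markers were called, against 0.597% of all genes with all arrays. Markers of the same cells are not independent of each other, and control ASO 4 was high for many of them. The part of these cells in the gaps and differences of the members was not tested.

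Gzma was the 1 of 14 measured lymphocyte markers with such gaps in both arrays (1.72 and 1.66), while the other 13 ranged from -0.33 (Cd4) to 0.94 (Nkg7) in wild type 2 and from -0.14 (Cd4) to 1.03 (Nkg7) in control ASO 4. Gzmb, like Gzma and Nkg7 a gene of cytotoxic lymphocytes, had gaps of 0.92 and 0.87 and the T cell receptor gene Cd3d 0.62 and 0.61, while its partner Cd3e had 0.06 and -0.0017. S100a8 and S100a9, found in neutrophils and monocytes, were the 2 of 9 markers of those cells that had them, while Mpo had -0.44 and -0.30. The array mean of the lymphocyte list lay between 4.92 and 5.18 in transgenic, 4.82 and 5.36 in wild-type, 4.57 and 4.90 in ACAT2 ASO and 4.51 and 4.95 in control ASO liver. For the neutrophil and monocyte list it lay between 4.83 and 5.06 in transgenic, 4.78 and 5.37 in wild-type, 4.89 and 5.30 in ACAT2 ASO and 4.87 and 5.31 in control ASO liver. For both lists wild type 2 and control ASO 4 were the highest arrays of their models, and the part of these cells in the members' gaps was not tested. Of 6 dendritic cell, 8 sinusoidal endothelial and 11 hepatocyte markers measured, 0 had a gap of 1 or more in both arrays. The hepatocyte list averaged between 12.53 and 12.88 on every array. The 3′ minus 5′ signal of Actb's control probe sets, a measure that grows as RNA breaks down, was 0.83 in wild type 2 and 1.04 in control ASO 4, against 0.83 to 1.26 over all 18 arrays.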

How the data were processed

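Hepatic RNA of 18 mouse liver samples was measured on Affymetrix MG-430 PM arrays. The deposited values are log2 probe set summaries that the authors made with RMA, per the submitters' processing notes; its version is not given in the sources used here, and whether the 2 models were summarised together was not stated. The log2 scale was taken from the values. Of 45141 probe sets, 104 control probe sets were left out, 28898 had 1 gene symbol, 551 several and 15588 none. Of the 28898, 28689 matched RefSeq's mouse genes (GRCm38.p6) by Entrez number, and 0 symbols changed. No filter on low values was applied, and 0 pairs of arrays held identical values.

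Differences were tested with limma 3.58.1 (R 4.3.3) by lmFit and eBayes on all 17097 genes, with a mean per group over 18 arrays, two-sided, with Benjamini-Hochberg adjustment and a threshold of 0.05. The members, lists and alternatives were chosen with earlier results of these data known, so no p is given over a list. Per-array values are given for the 6 members with the smallest p and the 4 with the largest difference in each comparison and the 6 with the largest spread. Of each pathway list, called genes and up to 3 genes with the smallest p per comparison may be named, and others are marked as named after their values were seen. The procedure was also run on simulated data with independent noise for each gene and no array high across many genes. That run does not show how the test performs for members that vary together. Promoter windows come from RefSeq. Figures were drawn with matplotlib 3.10.9. The number of arrays limits the precision.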

Additional observations from a re-analysis of the deposited data

Results flagged for a closer look

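Values that stood far from the rest of their group, by Dixon's test at the 95% level, were looked for among the 35 members and their mean in the 4 groups, 144 tests in all. Chance gives such a value in about 5 of 100 groups, and members that vary together are not independent tests. Most of the values found came from control ASO 4, as the highest of 4 control ASO livers. That array had already been seen to be high in these genes, so its values cannot be read against the chance rate. Control ASO 4 read 9.41 for Irf1, 6.08 for Dhx58, 6.69 for Oasl1 and 4.86 for Oasl2. The Ifit genes stood at 7.14 for Ifit1, 7.14 for Ifit2 and 8.39 for Ifit3, with Usp18 at 7.76, Mx1 at 4.21 and Rsad2 at 8.18. Gbp3 was at 9.45, Iigp1 at 12.02, Igtp at 10.28 and Cxcl10 at 9.67 on this array, and the mean over the 35 members was 7.60.

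Wild type 2 stood far above the other wild-type livers for Eif2ak2 (6.17), Isg20 (5.22), Mx1 (5.09), Iigp1 (12.52), Igtp (10.84) and Irgm1 (10.53). Wild type 5 did so for Oas3 (5.06) and ACAT2 ASO 1 for Igtp (8.75), while transgenic 2 stood below the other transgenic livers for Zbp1 (6.99). Wild type 2 had likewise been seen to be high in these genes, so its values cannot be read against the chance rate either. Cxcl9 and Gbp2, whose gaps were among the largest, were not singled out in control ASO liver by this test, as their other 3 arrays also spread widely. The effects of the transgene and of the ACAT2 ASO differed by limma's test of the difference itself for Ifnar1 (0.41), Ifi27 (1.10) and Tdrd7 (0.64), as transgenic effect minus ASO effect on the log2 scale.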

How the results depend on the processing

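Calls of members hardly depended on the processing. The count of members called stayed at 0 in all 3 comparisons under the filter, normalization, centring, probe set, variance, weighting and block alternatives and without each array in turn (0 to 0). The exception, added after seeing the data, left out wild type 2, control ASO 4 and ACAT2 ASO 1 together and called 1 member, Igtp, in transgenic liver. Of 984 recomputed differences of the 17 members given by array, 983 kept their side of the threshold, 1 (Igtp) passed it and 0 were reversed after a call. As no member was called with all arrays, a reversal could be counted only where an alternative made a call. Many of the 984 also had little room to change. Leaving out an array of 1 model leaves the differences in the other model as they were and alters only the shared estimate of the spread. Signs did turn without a call. Igtp's ASO difference was -0.42 with all arrays and 0.13 without control ASO 4. The median over members ran from -0.10 (without wild type 5) to 0.21 (without wild type 2) in the transgenic comparison and from -0.31 (without control ASO 3) to 0.075 (without control ASO 4) in the ASO comparison. The number of arrays limits what can be seen for genes that spread as widely as these.

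Counts over all genes moved more. In fits of each comparison's own arrays they were 13 (transgenic) and 17 (ASO), and 13 and 18 when wild type 2 and control ASO 4 were also left out, which was added after seeing the data. With array weights they were 465 for the ASO comparison and 369 for the difference between the effects. That difference gave 102 genes after quantile normalization, 112 with each array's median subtracted and 74 without wild type 2 and control ASO 4. Without ACAT2 ASO 1 as well, it gave 58 and the ASO comparison 46. Leaving out single arrays gave 20 to 58 genes (transgenic), 42 to 203 (ASO) and 69 to 262 (difference between the effects). Pathway genes called in the ASO comparison numbered 1 with medians subtracted, 3 with array weights and 1 without wild type 2 and control ASO 4. Without single arrays they were 1 to 1 in the transgenic comparison, 0 to 2 in the ASO comparison and 1 to 3 for the difference between the effects. The replicate numbers gave no sign that they pair the samples, though the correlations of deviations from the group means cannot exclude it. Same-numbered arrays had correlations of -0.482 to 0.168 (transgenic model) and -0.482 to 0.469 (ASO model). In the 2 models, 0 of 5 and 1 of 4 arrays correlated best with their own number. With the number as a replicate block, 2, 18 and 12 genes were called in the 3 comparisons, and 0 pathway genes in transgenic liver and for the difference. The causes of these shifts were not tested.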

Other observations

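The 11 members with more than 1 probe set had 14 further probe sets. Wild type 2 was the highest wild-type array for 11 of these 14 and control ASO 4 the highest control ASO array for 8. The margins differed widely. The further probe set of Gbp2 had gaps of 1.95 in wild type 2 and 3.64 in control ASO 4. That of Cmpk2 had 0.11 and -0.07, against 1.09 and 0.55 for the probe set used. The transgenic difference had the sign of the main probe set in 11 of 14 and the ASO difference in 10 of 14.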
